A study of Homo sapiens with 18 samples.

Results

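The 39 genes described here are known direct transcriptional targets of p53 whose products act in feedback on p53, in the DNA damage response, in growth and the cell cycle, in metabolism and at cell membranes. They were chosen by name as established targets and not by their measured values, although earlier results of these data were known. CDKN1A, the death receptors, the BCL2 family genes and the sestrins were excluded from the list. All 39 were found by symbol among the 26473 genes of the expression tables.

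The genes were followed in C4-2B, an established androgen receptor-positive prostate cancer cell line derived from LNCaP cells. The study asked how VIC-1911, an inhibitor of the mitotic kinase AURKA, and olaparib, an inhibitor of the DNA repair enzyme PARP, act alone and together on gene expression. DMSO (vehicle) or 0.1 µM VIC-1911 was given for 2 days, and DMSO, 0.1 µM VIC-1911, 1 µM olaparib or both drugs at these doses were given for 7 days. PolyA RNA was sequenced in 3 libraries of each of the 6 groups, 18 in all. Every group was grown in the same serum-containing medium, and the labels call the genotype WT without naming a gene. A single line stands for no other prostate tumor. The labels do not say that the 3 libraries of a group came from separate cultures, so the p-values below measure only the spread between these libraries, which may be technical.

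The libraries held 3245273 to 7184420 counts at 2 days and 4967931 to 19684208 at 7 days. The smallest library of 7 days, olaparib replicate 1, stood apart from the other olaparib libraries on the third principal component (-36.3 against 2.5 and 0.238). The library numbers of the 7-day vehicle and VIC-1911 samples follow each other, and those of the olaparib and combination samples form another run of numbers. For olaparib or the combination against vehicle, the run and the drug therefore cannot be told apart, whereas the groups set against each other lie within 1 run for the combination and olaparib, and for VIC-1911 and vehicle. All 9 prostate luminal markers checked were measured in every group, with KLK3, the gene of prostate-specific antigen, at 1240 FPKM or more (FPKM, fragments per kilobase of transcript, scaled to the mapped fragments of the library). Of 11 markers of blood, endothelial, fibroblast and basal cells, PTPRC, CD3E, PECAM1, COL1A2, DCN, KRT5 and TP63 did not exceed 0.0396 FPKM in any library. The rest of the list was measured, with CD68, VWF, COL1A1 and KRT14 reaching 10.1, 0.754, 2.27 and 2.89 FPKM in their highest libraries.

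p53 is a transcription factor that is held low by MDM2-driven degradation and accumulates when DNA is damaged or mitosis fails. It binds a response element made of paired copies of a short palindromic sequence and switches on genes that stop growth, repair DNA, adjust metabolism or kill the cell. Several targets, MDM2 and PPM1D among them, act back on p53 and limit how long it stays active. RNA levels of the targets are often used as a readout of p53 activity, although other factors regulate many of them too.

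Promoter sequences were examined first, because the members were grouped by a shared regulator. RefSeq promoters (GRCh38.p14, 250 bases before to 50 after the start site) were matched for 33 of the 39 genes. A p53 response element of 20 bases with no spacer, with at most 3 mismatches outside the invariant C and G of each copy, was found in 3 of these 33 promoters (9.1%) and in 288 of 27303 promoters of all genes (1.1%). The element reads the same on both strands, so 1 strand was scanned. The 3 promoters are shown over the 150 bases before the start site, 5′ to 3′ on the strand of the gene, because they are the members whose window holds the element. Capitals mark the element, which has 2 mismatches in AEN and 3 each in RPS27L and FDXR and begins 34, 69 and 21 bases before the start site in these genes.
AEN, chr15:88621190-88621339, plus strand: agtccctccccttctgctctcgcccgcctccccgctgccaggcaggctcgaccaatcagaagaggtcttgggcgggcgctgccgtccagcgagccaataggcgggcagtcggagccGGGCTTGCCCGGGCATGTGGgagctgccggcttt
RPS27L, chr15:63157478-63157627, minus strand: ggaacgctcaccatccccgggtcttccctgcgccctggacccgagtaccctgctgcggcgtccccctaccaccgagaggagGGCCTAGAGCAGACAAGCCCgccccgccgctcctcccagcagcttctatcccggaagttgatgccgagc
FDXR, chr17:74872995-74873144, minus strand: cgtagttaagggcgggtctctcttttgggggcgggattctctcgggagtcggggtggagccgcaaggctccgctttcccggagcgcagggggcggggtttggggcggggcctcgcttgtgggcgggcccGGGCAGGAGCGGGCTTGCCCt
A match in these letters is a description and not a site of binding, and a window without one says nothing about p53, since elements can lie outside it. AEN, RPS27L and FDXR each rose in all 4 comparisons with vehicle described next. They are among 19 of the 38 tested members that did so, and a link to the element was not tested.

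Most of the 39 genes were higher after each treatment, with the largest median change under the combination and the smallest after 2 days of VIC-1911. The counts were fitted across all genes with edgeR's quasi-likelihood test, and a gene was called at a Benjamini-Hochberg adjusted p under 0.05. EDA2R, a receptor for ectodysplasin A2, had at most 5 counts in any library and was not tested, and the other 38 genes passed the filter on low counts in every fit. After 2 days of VIC-1911, 23 of the 38 rose, against 7.50% of all genes tested, and none fell, against 7.19%. After 7 days, 26 rose under VIC-1911 (26.7% of all genes) and 1 fell (25.7%), while 34 rose under olaparib (28.1%) and 34 under the combination (28.6%). With these drugs none fell, against 25.9% and 28.0% of all genes.

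The counts of 0 came from edgeR, and DESeq2 and limma also called no member lower in these 3 comparisons. At an unadjusted p under 0.05, edgeR had 1 member lower at 2 days (DRAM1, a lysosomal autophagy modulator) and 0 under olaparib and the combination. The median log2 fold change of the 38 genes was 0.34 for VIC-1911 at 2 days, 0.45 for VIC-1911 at 7 days, 0.75 for olaparib and 0.88 for the combination. The median over all genes tested lay between -0.005 and 0.01 in these comparisons. The 3 comparisons of 7 days share their vehicle libraries, so their counts are not independent of each other.

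**Figure D1:**
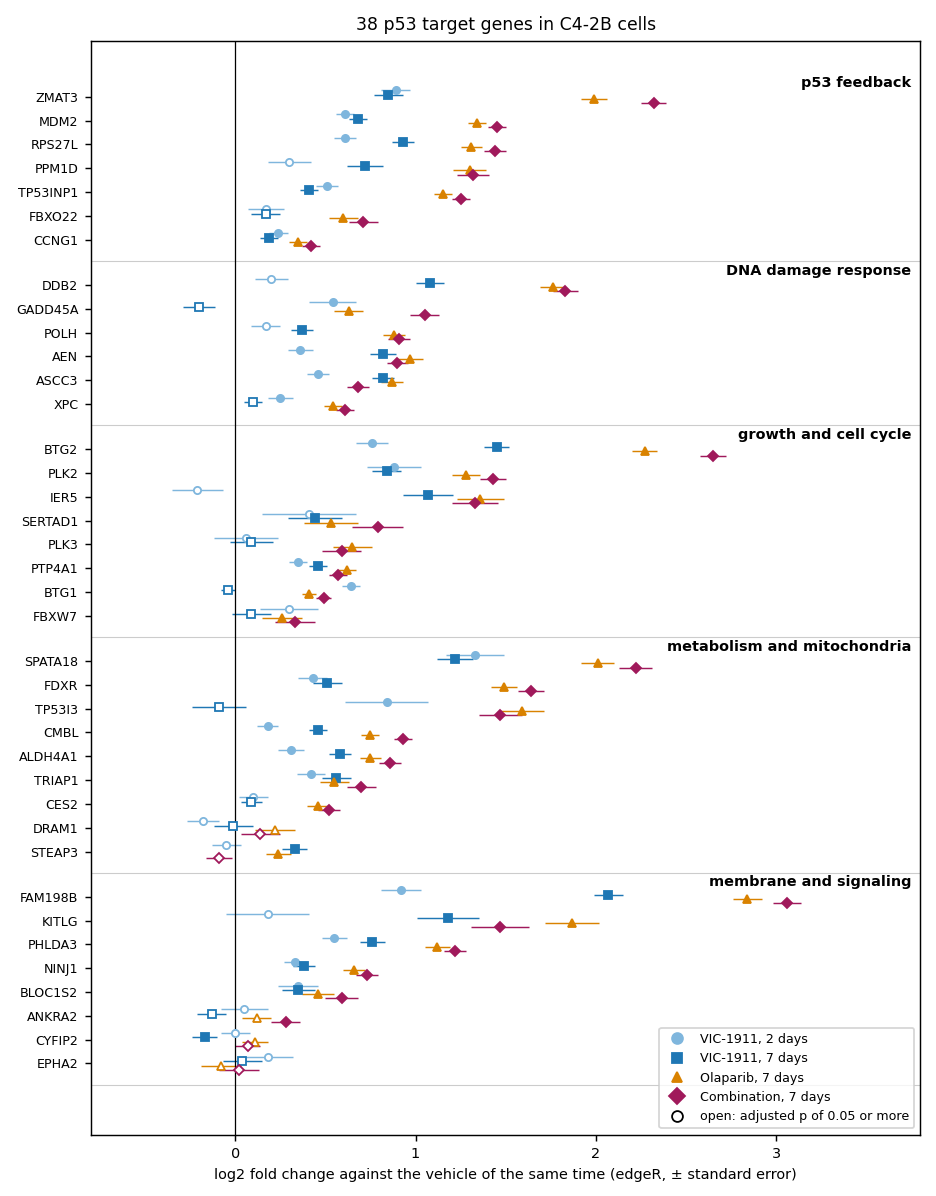
Log2 fold change (x axis, edgeR, ± standard error) of the 38 tested p53 target genes, grouped by role, against the vehicle of the same time; filled symbols passed the test (adjusted p under 0.05) and open ones did not. Nearly all symbols lie right of 0, with FAM198B farthest right under the combination (3.06) and DRAM1 and EPHA2 open in all 4 comparisons.

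Fold limits of 1.5 at 2 days and 2 at 7 days were counted besides. At 2 days, 9 members rose by at least 1.5-fold, against 0.825% of all genes. At 7 days, 6 rose by at least 2-fold under VIC-1911 (3.46% of all genes), 15 under olaparib (3.63%) and 16 under the combination (4.55%). The 6 under VIC-1911 were FAM198B, BTG2, SPATA18, KITLG, DDB2 and IER5. In 26 members at 2 days every VIC-1911 library was above every vehicle library in FPKM (14.5% of all genes). This held at 7 days for 29 under VIC-1911 (33.9%), 34 under olaparib (31.9%) and 34 under the combination (30.1%). Across the comparisons with vehicle, 19 members rose in all 4, against 4.63% of the 12240 genes tested at both times. The 2 tested members that passed in none were DRAM1 and EPHA2 (20.8% of all genes), and 0 rose in one and fell in another (5.13%). As in any bulk measurement, a change in the RNA of each cell cannot be told apart from a change in the mixture of cells.

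Of the genes that act back on p53, all 7 rose under olaparib and under the combination, 6 rose after 7 days of VIC-1911 and 5 after 2 days. The shares of all genes tested that rose were 28.1%, 28.6%, 26.7% and 7.50% in the same order. MDM2 (hg38 chromosome 12, 68808172 to 68850686), the ubiquitin ligase that marks p53 for degradation, was at 17.4, 16.9 and 16.6 FPKM in the 2-day vehicle libraries and at 26, 25.5 and 25.3 with VIC-1911. At 7 days it was at 13.8, 12.6 and 13.2 with vehicle, 21.9, 21.5 and 22.2 with VIC-1911, 35, 33 and 33.5 with olaparib and 35, 37.4 and 35.8 with both. Every treated library exceeded the vehicle libraries of its time, and every combination library exceeded the olaparib libraries, the nearest 2 being equal when rounded. MDM2 rose by 0.61 ± 0.05 (log2 fold change ± SE) at 2 days (edgeR adjusted p = 1.3e-11). At 7 days it rose by 0.68 ± 0.05 with VIC-1911, 1.34 ± 0.05 with olaparib and 1.45 ± 0.05 with both (edgeR adjusted p = 3.8e-13, 3.0e-20 and 2.9e-21).

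ZMAT3, a zinc finger RNA-binding protein (chromosome 3, 179017223 to 179072513), changed most in this group under olaparib and the combination. Its levels were 3.18, 2.94 and 3.0 FPKM with vehicle and 5.88, 5.28 and 5.41 with VIC-1911 at 2 days. At 7 days they were 3.54, 3.06 and 3.38 with vehicle, 6.96, 5.71 and 5.87 with VIC-1911, 13.8, 12.1 and 14.1 with olaparib and 15.8, 16.9 and 17.2 with both. No groups overlapped at 7 days, and the levels stepped up from vehicle to VIC-1911, olaparib and the combination. The fold change of ZMAT3 was 1.86 and 1.8 with VIC-1911 at 2 and 7 days, 3.96 with olaparib and 5.01 with both (edgeR adjusted p from 1.4e-21 to 2.5e-10).

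RPS27L, a ribosomal protein paralog that binds MDM2, was the most abundant of the 39 genes in the VIC-1911, olaparib and combination groups. It stood at 86, 87.9 and 85.8 FPKM with vehicle and 133, 127 and 123 with VIC-1911 at 2 days. At 7 days the vehicle libraries held 50.3, 48 and 49.1, VIC-1911 91, 93.3 and 105, olaparib 118, 125 and 125 and the combination 142, 125 and 132. All treated libraries were above the vehicle libraries of their time, by 0.61 ± 0.06, 0.93 ± 0.06, 1.31 ± 0.06 and 1.44 ± 0.06 on the log2 scale in the order VIC-1911 at 2 days, VIC-1911 at 7 days, olaparib, both (edgeR adjusted p from 5.0e-19 to 1.0e-10). RPS27L could share reads with its paralog RPS27, which had log2 fold changes of 0.03, -0.11, -0.29 and -0.25 in the same 4 comparisons.

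The other feedback genes rose less or later. PPM1D, the phosphatase that switches off p53 and its kinases, had a log2 fold change of 0.30 ± 0.12 at 2 days, which did not pass the test (edgeR adjusted p = 0.0737, and 0.0249 without VIC-1911 replicate 3), and rose by 0.72 ± 0.10 with VIC-1911, 1.30 ± 0.09 with olaparib and 1.32 ± 0.09 with both at 7 days. TP53INP1, a nuclear cofactor of p53 that also acts in autophagy, rose by 0.51, 0.41, 1.15 and 1.25 in the 4 comparisons. CCNG1, cyclin G1, which brings a phosphatase to MDM2, was the most abundant member in the 2-day vehicle libraries (mean 92.4 FPKM) and rose by only 0.24, 0.19, 0.35 and 0.42. FBXO22, a ubiquitin ligase subunit, passed the test only under olaparib (0.60 ± 0.08) and the combination (0.71 ± 0.08) of the 4.

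All 6 genes of the DNA damage response rose under olaparib and under the combination (28.1% and 28.6% of all genes). With VIC-1911, 4 of 6 rose at each time (7.50% of all genes at 2 days and 26.7% at 7 days). DDB2, which recognizes damage in nucleotide excision repair, showed the largest change among them at 7 days. It stood at 13.9, 12.3 and 13.7 FPKM with vehicle and 15.6, 16.1 and 15.2 with VIC-1911 at 2 days. At 7 days it stood at 7.67, 7.73 and 8.34 with vehicle, 18.6, 15.3 and 17.4 with VIC-1911, 25.8, 27.2 and 27.2 with olaparib and 28.6, 26.8 and 28.4 with both. The 2-day groups did not overlap but the difference did not pass the test (0.20 ± 0.09, edgeR adjusted p = 0.163). At 7 days DDB2 rose 2.11-fold, 3.39-fold and 3.56-fold (edgeR adjusted p = 1.1e-12, 2.6e-18 and 5.0e-19).

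AEN, a nuclease that promotes apoptosis, and ASCC3, a DNA helicase, differed less among the 3 treatments of 7 days than DDB2 did. AEN was at 16.6, 15.2 and 15.1 FPKM with vehicle and 21.1, 20.4 and 19.2 with VIC-1911 at 2 days. At 7 days the values were 11.3, 9.53 and 8.98 with vehicle, 18.3, 17.4 and 19.1 with VIC-1911, 20.1, 20.4 and 19.2 with olaparib and 18.7, 19.1 and 18.5 with both. Vehicle was below all treated libraries at both times, and AEN rose by 0.36 ± 0.07, 0.82 ± 0.07, 0.97 ± 0.07 and 0.90 ± 0.06 (edgeR adjusted p from 2.4e-13 to 4.6e-04).

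ASCC3 was at 11.2, 9.18 and 10.2 FPKM with vehicle and 15, 13.8 and 13 with VIC-1911 at 2 days. By 7 days it was at 5.23, 5.21 and 5.62 with vehicle, 9.94, 9.41 and 9.82 with VIC-1911, 10.4, 9.77 and 9.55 with olaparib and 7.69, 9.21 and 8.77 with both. The combination libraries were above vehicle and below every library of either single drug. ASCC3 rose by 0.46 ± 0.06, 0.82 ± 0.06, 0.87 ± 0.06 and 0.68 ± 0.06 (edgeR adjusted p from 3.6e-13 to 6.6e-07).

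GADD45A, a stress sensor of growth arrest and repair, differed between the 2 times. At 2 days it was at 7.61, 8.62 and 8.29 FPKM with vehicle and 11.1, 12.3 and 11.6 with VIC-1911, with no overlap. At 7 days vehicle held 15.7, 15.1 and 19.4 and VIC-1911 14, 13.9 and 15.9, which overlapped, whereas olaparib held 22.2, 26.2 and 26.7 and the combination 35.6, 31.9 and 33.5. GADD45A rose by 0.54 ± 0.13 with VIC-1911 at 2 days (edgeR adjusted p = 0.00439) and by 0.63 ± 0.08 with olaparib and 1.05 ± 0.08 with both at 7 days (1.6e-07 and 2.1e-12). Its log2 fold change with VIC-1911 at 7 days was -0.20 ± 0.09, short of the threshold (edgeR adjusted p = 0.0628) but past it in 5 of 14 alternative fits (adjusted p down to 0.0196).

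XPC, a partner of DDB2 in damage recognition, rose by 0.54 ± 0.05 with olaparib and 0.61 ± 0.05 with both, and by 0.25 ± 0.07 with VIC-1911 at 2 days. The 2-day call of XPC was lost with DESeq2, without vehicle replicate 2 and without VIC-1911 replicate 1 (adjusted p up to 0.0831). POLH, a polymerase that copies past damaged bases, rose by 0.37, 0.88 and 0.91 in the 3 comparisons of 7 days. Its annotated span shares 30 bases with that of GTPBP2, whose log2 fold changes were -2.23, -2.36 and -2.21 there, opposite in sign to those of POLH. Averaged over all libraries of a time, and at the larger of the 2 times, the count of GTPBP2 was 138% of that of POLH. This mean pools vehicle and treated libraries, between which GTPBP2 differed. The values of POLH are uncertain as far as reads in the shared bases could be split.

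**Figure D2:**
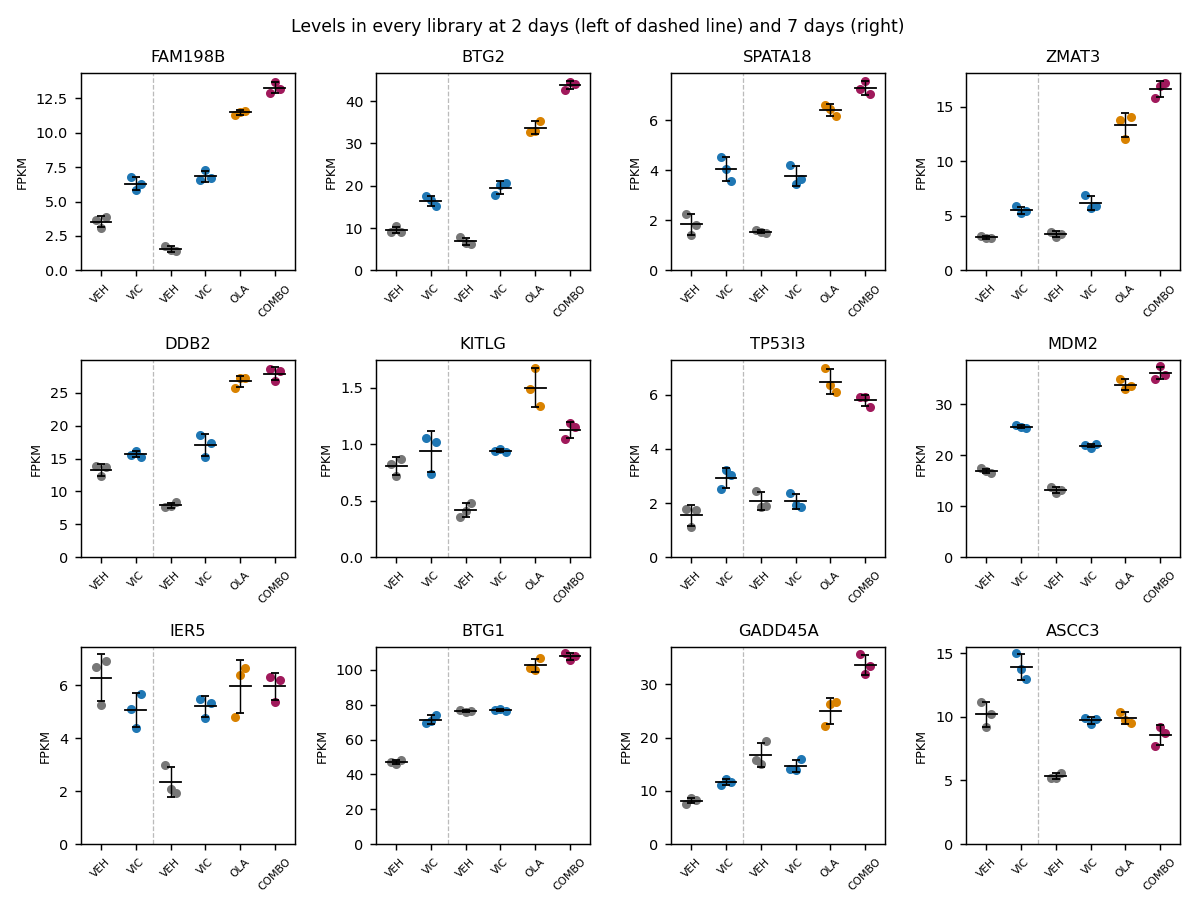
FPKM in each library (points), group mean (horizontal line) and SD (error bar, n = 3) of 12 members, at 2 days to the left of the dashed line and at 7 days to the right. FAM198B, BTG2, SPATA18 and ZMAT3 step up from vehicle to VIC-1911, olaparib and the combination, while ASCC3, KITLG and TP53I3 have lower means with both drugs than with olaparib alone.

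All 8 genes of growth and the cell cycle, which include both brakes and drivers of growth, rose under olaparib and under the combination (28.1% and 28.6% of all genes). With VIC-1911, 4 rose at 2 days (7.50% of all genes) and 5 after 7 days (26.7%). BTG2, an antiproliferative factor that recruits mRNA deadenylases (chromosome 1, 203305519 to 203309602), was among the most changed of all members. It was at 9.17, 10.4 and 9.15 FPKM with vehicle and 17.6, 16.6 and 15.2 with VIC-1911 at 2 days. At 7 days vehicle held 7.79, 6.52 and 6.31, VIC-1911 17.9, 20.2 and 20.6, olaparib 32.7, 33 and 35.4 and the combination 42.7, 44.4 and 44.1. No groups of one time overlapped, and BTG2 rose 1.7-fold at 2 days and 2.74-fold, 4.81-fold and 6.27-fold at 7 days with VIC-1911, olaparib and both (edgeR adjusted p from 1.0e-23 to 3.1e-08).

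BTG1, of the same family, was higher in level and smaller in change. It stood at 47, 45.9 and 48.1 FPKM with vehicle and 69.3, 70.8 and 74.4 with VIC-1911 at 2 days. At 7 days it stood at 77.2, 75.8 and 76.5 with vehicle, 77.2, 77.3 and 76.4 with VIC-1911, 101, 100.0 and 107 with olaparib and 110.0, 106 and 108 with both. VIC-1911 libraries were above vehicle only at 2 days. BTG1 rose by 0.64 ± 0.05 at 2 days (edgeR adjusted p = 5.5e-13), and its log2 fold changes at 7 days were -0.04 ± 0.04 with VIC-1911, which did not pass the test, 0.41 ± 0.04 with olaparib and 0.49 ± 0.04 with both.

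IER5, an immediate early response protein, had the opposite order in time. At 2 days it was at 6.68, 5.27 and 6.92 FPKM with vehicle and 5.12, 4.39 and 5.66 with VIC-1911. At 7 days vehicle held 2.99, 2.07 and 1.94, VIC-1911 5.5, 4.76 and 5.35, olaparib 4.82, 6.4 and 6.66 and the combination 6.32, 5.39 and 6.2. The groups overlapped at 2 days (-0.21 ± 0.14, edgeR adjusted p = 0.342), and at 7 days all treated libraries were above vehicle, 2.11-fold, 2.57-fold and 2.51-fold on average (edgeR adjusted p = 1.0e-07, 5.5e-10 and 6.0e-10). The mean level of IER5 in the 7-day vehicle libraries was 0.37 times that in the 2-day vehicle libraries, a ratio between separate experiments that was not tested.

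PLK2, a polo-like kinase, was at 3.32, 2.97 and 2.83 FPKM with vehicle and 5.68, 4.81 and 4.95 with VIC-1911 at 2 days. After 7 days it was at 5.49, 5.28 and 6.39, 9.8, 10.4 and 10.7, 13.1, 13.3 and 14.7 and 14.4, 15.7 and 15.2 with vehicle, VIC-1911, olaparib and both. The treated libraries were all above vehicle, by 0.88 ± 0.15, 0.84 ± 0.08, 1.28 ± 0.08 and 1.43 ± 0.07 on the log2 scale (edgeR adjusted p from 5.0e-16 to 3.9e-05). Its relative PLK3 rose by 0.65 ± 0.11 with olaparib and 0.59 ± 0.11 with both, and did not pass the test with VIC-1911 at either time. The remaining growth genes changed less. PTP4A1, a tyrosine phosphatase that promotes growth, rose in all 4 comparisons by 0.35 to 0.62. SERTAD1, which activates CDK4 and E2F, rose at 7 days by 0.44, 0.53 and 0.79, the first of these being lost without vehicle replicate 2 or VIC-1911 replicate 3 (adjusted p up to 0.105). FBXW7, which targets cyclin E and MYC for degradation, had the smallest increases, 0.26 ± 0.11 with olaparib (edgeR adjusted p = 0.0491, up to 0.301 in the 9 of 14 alternatives that lost it) and 0.33 ± 0.11 with both (0.00955, and 0.0618 at most in the 3 alternatives that lost it).

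Of the 9 genes of metabolism and mitochondria, 8 rose under olaparib (28.1% of all genes) and 7 under the combination (28.6%). With VIC-1911, 6 rose at each time (7.50% of all genes at 2 days and 26.7% at 7 days). SPATA18, which takes part in mitochondrial quality control (chromosome 4, 52051304 to 52097299), showed the largest change of all members at 2 days. It was at 2.26, 1.42 and 1.83 FPKM with vehicle and 4.52, 4.07 and 3.58 with VIC-1911. After 7 days it was at 1.63, 1.52 and 1.5 with vehicle, 4.2, 3.45 and 3.67 with VIC-1911, 6.61, 6.46 and 6.16 with olaparib and 7.23, 7.57 and 7.03 with both. No groups of one time overlapped. SPATA18 rose 2.52-fold at 2 days and 2.33-fold, 4.03-fold and 4.65-fold at 7 days (edgeR adjusted p = 4.8e-08, 8.5e-12, 1.3e-17 and 4.5e-19).

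FDXR, the mitochondrial ferredoxin reductase that feeds electrons to steroid and iron-sulfur cluster synthesis, was at 14.8, 12.9 and 15.2 FPKM with vehicle and 19.1, 19.7 and 18.5 with VIC-1911 at 2 days. The 7-day levels were 13.1, 9.41 and 11 with vehicle, 16.3, 16.4 and 16.3 with VIC-1911, 31.1, 32.2 and 31.4 with olaparib and 36.5, 33.1 and 34.5 with both. The groups of one time did not overlap, and the VIC-1911 libraries lay far closer to vehicle than to olaparib. FDXR rose by 0.43 ± 0.08, 0.51 ± 0.08, 1.49 ± 0.07 and 1.64 ± 0.07 (edgeR adjusted p from 7.5e-18 to 9.9e-05).

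TP53I3, a quinone oxidoreductase, rested on few counts at 2 days (17, 14 and 19 with vehicle, 48, 39 and 53 with VIC-1911). Its levels were 1.79, 1.11 and 1.75 FPKM with vehicle and 2.5, 3.23 and 3.02 with VIC-1911 at 2 days. At 7 days they were 2.44, 1.86 and 1.89 with vehicle, 2.37, 1.93 and 1.87 with VIC-1911, 6.98, 6.35 and 6.1 with olaparib and 5.91, 5.91 and 5.54 with both. At 7 days VIC-1911 overlapped vehicle, while all olaparib and combination libraries were above both. TP53I3 rose by 0.84 ± 0.23 at 2 days (edgeR adjusted p = 0.00999), with 0.66 (0.0821) without vehicle replicate 2, and the call was also lost with DESeq2. With olaparib and with both drugs it rose 3.01-fold and 2.76-fold (edgeR adjusted p = 6.7e-12 and 2.7e-11), and with VIC-1911 at 7 days its log2 fold change was -0.09 ± 0.15 (0.652).

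The annotated span of TP53I3 overlaps that of FAM228B. Averaged over all libraries of a time, and at the larger of the 2 times, the count of FAM228B was 17.8% of that of TP53I3. CCNG1 overlaps NUDCD2 (15.6%) and PLK3 overlaps TCTEX1D4 (21.7%) in the same way. With VIC-1911 at 7 days NUDCD2 rose by 0.44 (edgeR adjusted p = 4.2e-05), in the direction of CCNG1 and by more, while FAM228B and TCTEX1D4 fell by 1.02 and 0.76 on the log2 scale (0.00306 and 0.0289). The sources used here do not say how reads in such overlaps were assigned, so the values of these 3 members are uncertain.

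Among the other metabolic genes, ALDH4A1, a mitochondrial dehydrogenase of proline breakdown, CMBL, a hydrolase, and TRIAP1, a mitochondrial lipid transfer chaperone, rose in all 4 comparisons, by 0.18 to 0.93. The call of CMBL at 2 days (0.18 ± 0.06, edgeR adjusted p = 0.0304) was lost in 10 of 13 alternatives (adjusted p up to 0.195). CES2, a carboxylesterase, rose with olaparib (0.46 ± 0.06) and with both (0.52 ± 0.06) and did not pass the test with VIC-1911. STEAP3, an endosomal ferrireductase of iron uptake, was at 6.66, 5.77 and 6.3 FPKM with vehicle, 8.74, 7.89 and 7.71 with VIC-1911, 7.68, 7.11 and 7.61 with olaparib and 5.94, 5.66 and 5.88 with both at 7 days. Each single drug lay above vehicle, and the combination overlapped the lower end of the vehicle range. STEAP3 rose by 0.33 ± 0.07 with VIC-1911 and 0.24 ± 0.07 with olaparib (edgeR adjusted p = 2.2e-04 and 0.00591, the latter 0.104 without vehicle replicate 2), with -0.09 ± 0.07 under both (0.266). DRAM1 did not pass the test in any of the 4 comparisons, with log2 fold changes of -0.18 to 0.22. With olaparib it passed in 4 of 14 alternatives (adjusted p down to 0.0115), which were library size only, no count filter, the replicate block and leaving out olaparib replicate 2.

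The 8 tested genes of membrane and signaling proteins were the most mixed group. At 2 days 4 were higher (7.50% of all genes). At 7 days 5, 5 and 6 were higher with VIC-1911, olaparib and both (26.7%, 28.1% and 28.6% of all genes). FAM198B, a Golgi protein now named GASK1B (hg38 chromosome 4, 158124474 to 158173025), showed the largest change of all 38 genes in each comparison of 7 days. It was at 3.64, 3.08 and 3.86 FPKM with vehicle and 6.8, 5.83 and 6.26 with VIC-1911 at 2 days. Its 7-day levels were 1.79, 1.48 and 1.42 with vehicle, 6.53, 7.3 and 6.7 with VIC-1911, 11.3, 11.5 and 11.6 with olaparib and 12.9, 13.7 and 13.2 with both. No groups of one time overlapped. FAM198B rose 1.9-fold at 2 days and 4.19-fold, 7.17-fold and 8.36-fold at 7 days (edgeR adjusted p = 4.3e-08, 9.2e-19, 6.7e-23 and 4.4e-24). Its mean in the 7-day vehicle libraries was 0.442 times that in the 2-day vehicle libraries, again a ratio that was not tested.

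KITLG, the ligand of the receptor KIT, was the tested gene with the lowest levels, at 0.827, 0.719 and 0.874 FPKM with vehicle and 1.06, 0.733 and 1.02 with VIC-1911 at 2 days. The 7-day levels were 0.355, 0.413 and 0.479 with vehicle, 0.944, 0.96 and 0.929 with VIC-1911, 1.49, 1.68 and 1.34 with olaparib and 1.05, 1.19 and 1.15 with both. The 2-day groups overlapped, and at 7 days vehicle was lowest and olaparib highest, with no overlap between any of the 4 groups. KITLG rose 2.26-fold, 3.66-fold and 2.77-fold at 7 days (edgeR adjusted p = 7.8e-07, 2.0e-11 and 4.3e-09), on 37, 51 and 23 counts in the vehicle libraries.

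PHLDA3, which restrains the kinase AKT, rose by 0.55, 0.76, 1.12 and 1.22 in the 4 comparisons, and NINJ1, a membrane protein of plasma membrane rupture, by 0.33, 0.38, 0.66 and 0.73. BLOC1S2, a subunit of a complex for lysosome-related organelles, rose by 0.35, 0.35, 0.46 and 0.59, and its 2-day call was lost in 7 of 13 alternatives (adjusted p up to 0.167). CYFIP2, a subunit of the WAVE complex that drives actin branching, was the only member called lower against vehicle. Its 7-day levels were 7.5, 7.55 and 7.75 FPKM with vehicle and 6.8, 7.74 and 6.37 with VIC-1911. These libraries overlapped, and the call (-0.17 ± 0.07, edgeR adjusted p = 0.0401) was lost in 8 of 14 alternatives (adjusted p up to 0.289). ANKRA2, an ankyrin repeat adaptor, rose under the combination (0.28 ± 0.08, edgeR adjusted p = 0.00357), and EPHA2, an ephrin receptor, did not pass the test anywhere, with log2 fold changes of -0.08 to 0.18 against vehicle.

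The effect of VIC-1911 at 7 days was next compared with that at 2 days in a joint fit of the 12 vehicle and VIC-1911 libraries. Of the 38 genes, 12 had a larger log2 fold change at 7 days (14.6% of all genes tested) and 3 a smaller one (14.1%). The times are separate experiments with vehicle libraries of their own, and a difference between them holds the vehicle change as well. Among the 12 with a larger effect at 7 days, IER5 differed most (1.28 ± 0.20, edgeR adjusted p = 2.2e-06), followed by FAM198B (1.13 ± 0.15, 5.5e-08), KITLG (0.98 ± 0.30, 0.00978), DDB2 (0.86 ± 0.13, 5.8e-07) and BTG2 (0.67 ± 0.12, 2.8e-05). AEN, STEAP3, ASCC3, RPS27L, CMBL, ALDH4A1 and PPM1D differed by 0.25 to 0.44, and of these the calls of STEAP3, ALDH4A1 and PPM1D were lost in 1, 6 and 8 of 17 alternatives (adjusted p up to 0.0569, 0.0791 and 0.178). The 1 that lost STEAP3 left out 2-day vehicle replicate 2. The 3 genes with a smaller effect at 7 days were BTG1 (-0.69 ± 0.06, edgeR adjusted p = 9.4e-13), GADD45A (-0.76 ± 0.17, 3.9e-04) and TP53I3 (-0.94 ± 0.29, 0.0118). Without 2-day vehicle replicate 2 the difference of TP53I3 was -0.77 (edgeR adjusted p = 0.0729).

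Mean vehicle levels also differed between the experiments, which was not tested. The mean FPKM of the 7-day vehicle libraries relative to the 2-day ones was lowest for IER5 (0.37 times), FAM198B (0.442), KITLG (0.515), ASCC3 (0.525) and RPS27L (0.567). It was highest for GADD45A (2.044 times), PLK2 (1.882) and BTG1 (1.628). The part of these vehicle levels in the differences between the times was not tested. SPATA18, ZMAT3, PLK2 and MDM2 differed by -0.13 ± 0.20, -0.06 ± 0.12, -0.06 ± 0.17 and 0.06 ± 0.07 between the times, none past the test.

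**Figure D3:**
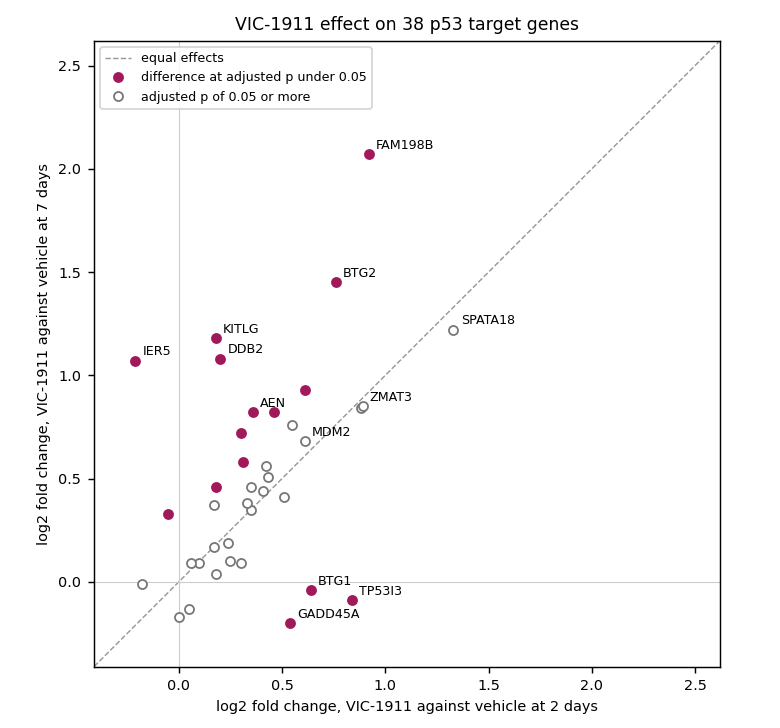
Log2 fold change of each of 38 p53 target genes with VIC-1911 against vehicle at 2 days (x axis) and at 7 days (y axis), with the line of equal effects dashed; filled points differ between the times at an adjusted p under 0.05. IER5, FAM198B, KITLG, DDB2 and BTG2 lie above the line, and BTG1, GADD45A and TP53I3 below it.

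Adding VIC-1911 to olaparib changed few of the genes. Against olaparib alone, 5 members rose under the combination (4.55% of all genes) and 3 fell (6.95%), and the median log2 fold change was 0.09. Both groups belong to 1 run of library numbers. The genes that rose were GADD45A (0.41 ± 0.07), BTG2 (0.38 ± 0.06), ZMAT3 (0.34 ± 0.06), FAM198B (0.22 ± 0.06) and CMBL (0.18 ± 0.05), with edgeR adjusted p from 2.4e-05 to 0.0106. GADD45A and BTG2 held in each of the 14 alternatives tried, and the adjusted p of ZMAT3, CMBL and FAM198B reached 0.0545, 0.0632 and 0.143. The genes that fell were KITLG (-0.40 ± 0.12), STEAP3 (-0.33 ± 0.07) and ASCC3 (-0.19 ± 0.06), with edgeR adjusted p of 0.0316, 0.00171 and 0.0241, and of these STEAP3 alone held in all 14 alternatives, the adjusted p of KITLG and ASCC3 reaching 0.252 and 0.208. Without olaparib replicate 1, the library that stood apart, 5 rose and 1 fell. In 11 members every combination library was above every olaparib library (11.1% of all genes), and in 5 every one was below (16.2%).

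Adding olaparib to VIC-1911 changed many more. Against VIC-1911 alone, 28 members rose under the combination (20.7% of all genes) and 2, ASCC3 and STEAP3, fell (22.2%), the former lost in 8 of 14 alternatives (adjusted p up to 0.352). The median log2 fold change was 0.47. TP53I3 rose by 1.55 ± 0.12, ZMAT3 by 1.48 ± 0.07, GADD45A by 1.24 ± 0.08, BTG2 by 1.20 ± 0.06 and FDXR by 1.13 ± 0.07 (edgeR adjusted p from 1.8e-16 to 2.8e-11). TP53I3 and GADD45A had not passed the test with VIC-1911 alone at 7 days. This comparison crosses the runs of library numbers. The mean FPKM followed the order vehicle, VIC-1911, olaparib, combination in 24 of 38 genes, was lowest with vehicle in 32 and highest with both drugs in 27. The log2 fold change of olaparib was above that of VIC-1911 in 35, a difference that was not tested gene by gene. The shares of all genes with these orders were not computed, so the counts cannot be read as particular to the members.

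For most members the log2 fold change of the combination was smaller than the sum of those of the single drugs. The point estimate lay below the sum in 33 of 38 genes, and the interaction term, which asks whether the effect of VIC-1911 in the presence of olaparib equals that in its absence, was negative and past the test in 23 (22.9% of all genes) and positive in 2 (21.0%). Without olaparib replicate 1 these counts were 24 and 1. The median of the term was -0.35 over the 38 members and 0.006 over all genes tested. The share of all genes with a point estimate below the sum was not computed. FAM198B had the largest deficit (-1.85 ± 0.10, edgeR adjusted p = 5.1e-15), with a sum of 4.91 and a combined change of 3.06. KITLG (-1.58 ± 0.21), IER5 (-1.11 ± 0.18), BTG2 (-1.07 ± 0.09), ASCC3 (-1.02 ± 0.08), SPATA18 (-1.01 ± 0.12) and DDB2 (-1.0 ± 0.10) followed, with edgeR adjusted p from 2.6e-11 to 6.4e-06. AEN, RPS27L and MDM2 deviated by -0.89 ± 0.09, -0.80 ± 0.08 and -0.58 ± 0.06 (edgeR adjusted p = 2.2e-09, 1.3e-09 and 1.6e-08).

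GADD45A went the other way. Its combined change exceeded the sum by 0.61 ± 0.12 (edgeR adjusted p = 7.4e-05). Its VIC-1911 libraries overlapped vehicle, and its combination libraries were all above those of olaparib. ANKRA2 also passed with a positive term (0.29 ± 0.11, edgeR adjusted p = 0.0368), which was lost in 11 of 19 alternatives (adjusted p up to 0.114). For TP53I3 the combined change of 1.47 and the sum differed by -0.04 ± 0.18, and for XPC, CES2, FBXO22 and FBXW7 the term lay between -0.06 and -0.02, none past the test. The interaction sets an effect measured in one run of library numbers against an effect measured in the other. Its vehicle libraries are also those of the single-drug comparisons.

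**Figure D4:**
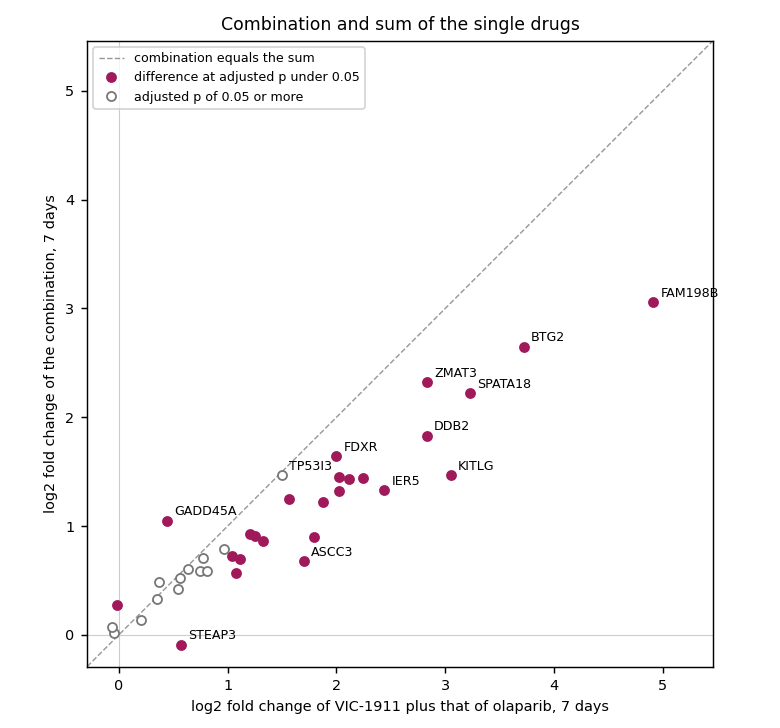
Sum of the log2 fold changes of VIC-1911 and olaparib alone (x axis) and log2 fold change of the combination (y axis) at 7 days for 38 p53 target genes, with the line of equality dashed; filled points have an interaction at an adjusted p under 0.05. FAM198B, KITLG, BTG2 and IER5 lie farthest below the line, and GADD45A lies above it.

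Regulators of p53 were set beside the targets. MDM4, which binds p53 and blocks its activity, was at 4.62, 5.13 and 4.38 FPKM with vehicle and 3.9, 3.69 and 3.46 with VIC-1911 at 7 days. MDM4 fell by 0.48 on the log2 scale with VIC-1911 at 2 days and by 0.42 at 7 days (edgeR adjusted p = 1.4e-04 and 3.3e-06), with 0.02 ± 0.06 under olaparib and 0.08 ± 0.06 under both. Of 18 p53 regulators tested, MDM4 and the checkpoint kinase gene CHEK2 fell with VIC-1911 at 2 days (11.1%, against 7.19% of all genes). The other 16 did not pass the test. At 7 days 7 regulators rose with VIC-1911, 7 with olaparib and 4 with both (38.9%, 38.9% and 22.2%, against 26.7%, 28.1% and 28.6% of all genes), and 3, 3 and 4 fell (16.7%, 16.7% and 22.2%, against 25.7%, 25.9% and 28.0%).

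Other p53 targets outside the members were counted too. Besides the classes that the rule excluded, this list, chosen by name, held GDF15, SFN, APAF1 and PIDD1. CDKN1A, the p21 inhibitor of cyclin-dependent kinases, rose by 1.23, 1.84, 3.04 and 3.31 in the 4 comparisons with vehicle. Of the 16 targets of this list tested at 2 days, 7 rose (43.8%, against 7.50% of all genes) and 2 fell (12.5% against 7.19%). Of the 17 tested at 7 days, 8 rose with VIC-1911 (47.1% against 26.7%), 9 with olaparib (52.9% against 28.1%) and 10 with both (58.8% against 28.6%). Those that fell numbered 5, 4 and 4 (29.4%, 23.5% and 23.5%), near the 25.7%, 25.9% and 28.0% of all genes. Among the 38 tested members the largest count of falls in a comparison with vehicle was 1. The markers of other cells were also summed in each library, at 9.86 to 10.4 FPKM with vehicle, 10.4 to 11 with VIC-1911, 12.8 to 14.4 with olaparib and 14.1 to 15.5 with both at 7 days, most of it from CD68, which lysosomes of many cells carry. The sum of the 9 prostate markers was 4391 to 4429 FPKM with vehicle at 7 days and 2900 to 3302 in the treated libraries. Their part in the changes of the members was not tested.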

How the data were processed

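The 39 members and the lists beside them were chosen with earlier results of these data known, and nothing here supports an earlier result independently. The authors trimmed reads with Trimmomatic, aligned them to GRCh38 (hg38) and quantified them per gene with STAR (2.6.0 in the submitters' processing notes, another version in the paper). They deposited raw counts per gene and FPKM values per library, computed with an in-house script, in 1 table of each kind per time. The strand setting and the treatment of shared reads are not given in the sources used here. All columns of both units were used. Symbols were taken from the files and positions from a RefSeq gene annotation on hg38.

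Groups were taken from the sample titles. The counts entered edgeR 4.0.16 under R 4.3.3, with TMM scaling, glmQLFit and the 2-sided glmQLFTest, and p-values were adjusted by Benjamini-Hochberg over all genes tested. A gene was tested where 3 or more libraries of that fit held 10 or more of its counts, which left 12241 genes at 2 days, 14409 at 7 days and 13811 in the joint fit of both times. Only this filter and this model set the calls. The FPKM values are printed as levels, and their ratios differed from the fitted fold changes of the members by at most 0.19 on the log2 scale. At 2 days the FPKM of the tested members were 1.0 to 1.13 times the values computed from the deposited counts with gene lengths inferred from the 7-day data. The reason was not tested. Replicate libraries differed by more than sampling noise in every group. Same-numbered libraries had correlations of their deviations from -0.036 to 0.111, so the replicate numbers were not taken as pairs.

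Values in every library are given for up to 8 members a comparison with vehicle, by absolute log2 fold change among called members whose groups did not overlap, and for up to 8 called members by adjusted p in the interaction and in the comparison of times. Other members are given by log2 fold change, range or count within their role. Chosen outside this rule after their values were seen were STEAP3 and CYFIP2, printed per library. Alternatives were upper-quartile normalization, library size only, no count filter, DESeq2 1.42.0, limma 3.58.1 on log2(FPKM + 1) and log2(FPKM + 0.1), a replicate block, the compared groups alone and leaving out each library. The fit was also run on simulated data with a common spread for all genes, and the outcome is not given here. Of the list of p53 regulators, 1 gene is not reported here and was left out of its counts.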

Additional observations from a re-analysis of the deposited data

Results flagged for a closer look

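The effect of VIC-1911 with olaparib present differed from its effect alone, by the interaction test, in 25 members. The difference was negative in 23 (22.9% of all genes) and positive in 2 (21.0%). The values are log2 differences, the effect with olaparib less that without. Among the feedback genes they were RPS27L (-0.80), MDM2 (-0.58), PPM1D (-0.71), ZMAT3 (-0.51) and TP53INP1 (-0.31). Among the damage response genes they were ASCC3 (-1.02), DDB2 (-1.0), AEN (-0.89), GADD45A (0.61) and POLH (-0.34). Among the growth genes they were BTG2 (-1.07), PTP4A1 (-0.52), PLK2 (-0.70) and IER5 (-1.11). Among the metabolic genes they were SPATA18 (-1.01), STEAP3 (-0.66), ALDH4A1 (-0.47), CMBL (-0.28), TRIAP1 (-0.41) and FDXR (-0.36). Among the membrane and signaling genes they were FAM198B (-1.85), KITLG (-1.58), PHLDA3 (-0.66), NINJ1 (-0.30) and ANKRA2 (0.29). The calls of FDXR and ANKRA2 did not hold throughout, with an edgeR adjusted p of 0.0795 for FDXR without vehicle replicate 2 and of up to 0.114 for ANKRA2 over its alternatives. No explanation of these differences was tested.

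The effect of VIC-1911 at 7 days differed from that at 2 days, by the same kind of test in the joint fit, in 15 members. It was larger at 7 days in 12 (14.6% of all genes) and smaller in 3 (14.1%). The values are the log2 effect at 7 days less that at 2 days. For the feedback genes the differences were RPS27L (0.31) and PPM1D (0.40). For the damage response genes the differences were DDB2 (0.86), GADD45A (-0.76), AEN (0.44) and ASCC3 (0.35). For the growth genes the differences were BTG1 (-0.69), IER5 (1.28) and BTG2 (0.67). For the metabolic genes the differences were CMBL (0.27), STEAP3 (0.37), TP53I3 (-0.94) and ALDH4A1 (0.25). For the membrane and signaling genes the differences were FAM198B (1.13) and KITLG (0.98). The calls of TP53I3 and STEAP3 were lost without 2-day vehicle replicate 2 (edgeR adjusted p = 0.0729 and 0.0569), and those of ALDH4A1 and PPM1D in 6 and 8 of 17 alternatives (up to 0.0791 and 0.178).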

How the results depend on the processing

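No member's log2 fold change that passed the test turned to the opposite call under any alternative. Of 4522 values of single members under alternatives, 4369 kept their side of the threshold, 114 fell short of it and 39 passed it anew. In all alternatives, 19 of 23 rises held for VIC-1911 at 2 days, 25 of 26 at 7 days, 32 of 34 for olaparib, 33 of 34 for the combination and 22 of 23 negative interactions. The counts that moved by more than 1.5 times were small ones. The number lower with VIC-1911 at 7 days (1) was 2 with upper-quartile normalization and 0 with library size only, DESeq2 and limma at either pseudocount, and 0 to 2 when 1 library was left out. Against olaparib, the combination had 3 and 2 members higher (main 5) and 1 and 1 lower (main 3) with limma at log2(FPKM + 1) and log2(FPKM + 0.1), and 4 to 6 higher and 1 to 3 lower without 1 library. Against VIC-1911, the number lower (2) was 1 with upper-quartile normalization, library size only, DESeq2 and both limma settings, and 1 to 2 without 1 library. Positive interactions (2) numbered 1 with no count filter, DESeq2 and both limma settings, and 1 to 3 without 1 library. The cause was not tested.

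Without 1 library, the rises numbered 20 to 22 for VIC-1911 at 2 days (main 23), 25 to 27 at 7 days, 32 to 34 for olaparib and 33 to 34 for the combination, the negative interactions 22 to 24, and the larger effects at 7 days than at 2 days 9 to 13 (main 12). With the replicate block, 2 members were lower with VIC-1911 at 7 days, 35 rose with olaparib (main 34) and 11 effects were larger at 7 days (main 12). It moved no other count. The comparison of times was not run on FPKM. TP53I3 at 2 days rested on 14 to 53 counts a library, and EDA2R was too low to test.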
